A study of Mus musculus with 4 samples.

Results

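Hormone-sensing luminal nuclei of the mammary ducts were picked out of single-nucleus RNA-seq profiles of fat dissected from the groin (inguinal white adipose) of C57BL/6N mice aged 6 months. A nucleus was counted as a member when it held at least 1 UMI (unique molecular identifier, 1 captured transcript) for at least 3 of 8 genes, Prlr, Pgr, Slc7a2, Mtmr7, Agtr1a, Samd5, Ttc6 and Mcub. It also had to hold fewer than 3 of 8 secretory luminal genes (Ltf, Chst9, Fcgbp, Kcnd2, Barx2, Wfdc18, Ccdc129, Slc5a7) and fewer than 4 of 9 adipocyte genes (Adipoq, Plin1, Cidec, Acsl1, Ghr, Pde3b, Fam13a, Acaca, Gpam). Of 50067 nuclei with at least 300 genes and at most 10% mitochondrial UMIs, 912 met this rule, or 1.82%. UMIs of these 25 genes are the measured values the members were chosen by, so their levels are a description and carry no test. The files carry the symbol Mcub on 2 rows. The row ENSMUSG00000027994 is annotated as Mcub and the row ENSMUSG00000029378 as Areg, the amphiregulin gene. A UMI on either row counted for the rule, so Areg is treated as a gene of the rule.

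The series holds 4 libraries, 2 labelled PTRF knockout (KO 1 and KO 2) and 2 labelled wild type (WT 1 and WT 2), each titled as its own mouse. Cavin1 was formerly called Ptrf and encodes cavin-1, a coat protein of caveolae, and the series title places the edit at a distal enhancer of Ptrf. The labels used here give no sex, stage of the estrous cycle, breeding history or molecular description of the allele. The p-values below rest on these 4 libraries alone. The tests of single genes draw each gene's spread partly from the other genes tested.

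Cavin1 (ENSMUSG00000004044, chr11:100956733-100970887, minus strand, GRCm38) went against the labels. In adipocyte-marked nuclei, those with at least 4 of the 9 adipocyte genes, it stood at 107 and 73.4 CPM in labelled KO 1 and KO 2, against 3.22 and 1.18 CPM in labelled WT 1 and WT 2, where CPM is UMIs per 1000000 UMIs of the summed nuclei. The libraries labelled knockout were the high ones, and the deposited file names carry the opposite genotype words from the titles. In the hormone-sensing nuclei the Cavin1 counts were 12 and 19 UMIs in labelled KO 1 and KO 2, against 0 and 0 in labelled WT 1 and WT 2, at least 13.4-fold higher in the libraries labelled KO over a floor of 3 counts for both WT libraries together. A UMI was found in 4.78 and 6.94% of members in labelled KO 1 and KO 2. In nuclei with at least 3 of 12 T and NK cell markers these shares were 1.77 and 2.57%. Members with 5 or more of the 8 genes held 11 and 7 Cavin1 UMIs in labelled KO, against 0 and 0 in labelled WT. Members with fewer than 2 markers of each of 8 other cell types held 9 and 0 in labelled KO, against 0 and 0 in labelled WT. Every direction below is that of the labels, and the genotype behind each label is not settled by these files.

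Hormone-sensing luminal cells line the mammary ducts and carry the receptors for estrogen, progesterone and prolactin. They divide rarely and pass the hormone signal to neighbouring epithelial cells through secreted factors, among them amphiregulin, a ligand of the EGF receptor, RANKL (gene Tnfsf11) and WNT4. Prolactin binds the receptor encoded by Prlr and signals through the kinase JAK2 and the transcription factor STAT5. Inguinal fat of female mice encloses a mammary gland, so dissected fat brings duct epithelium with it.

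The deposited matrices held 12454 and 16141 barcodes in labelled KO 1 and KO 2, and 15928 and 6827 in labelled WT 1 and WT 2, with 14039227, 35134206, 22585610 and 8855578 UMIs in that order. The members summed to 583639 and 541320 UMIs in the libraries labelled KO, against 808658 and 649704 in those labelled WT. Their median depth was 1822 and 1838 UMIs per nucleus in the libraries labelled KO, against 2079 and 2225 in those labelled WT. Between 47 and 143 barcode sequences were shared by each pair of libraries, 512 in all, and none of these shared pairs was a member in both libraries.

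The epithelial identity of the members held on genes that the rule did not use. Epcam, the epithelial adhesion molecule, averaged 602 CPM over the 4 libraries in members and 109.8 CPM in all remaining nuclei. Krt18, a keratin of simple and luminal epithelium, averaged 485 CPM in members and 46.1 CPM in the remaining nuclei, and Foxa1, the pioneer factor that opens chromatin for the estrogen receptor, 176 CPM in members and 7.67 CPM in the remaining nuclei. Esr1, the estrogen receptor alpha, averaged 1072 CPM in members and 505 CPM in the remaining nuclei, but in labelled KO 2 it was lower in the members, at 559.7 CPM, than in the remaining nuclei, at 848 CPM. The leukocyte gene Ptprc averaged 49.7 CPM in members and 299 CPM in the remaining nuclei. Nuclei just inside the threshold looked less epithelial. With exactly 3 of the 8 genes there were 32 and 75 members in labelled KO 1 and KO 2, against 67 and 41 in labelled WT 1 and WT 2, and Epcam averaged 320.5 CPM in them. With exactly 2 of the 8 genes, just outside, there were 198 and 359 nuclei in the libraries labelled KO, against 213 and 137 in those labelled WT, with Epcam at 80.5 CPM. Members with 5 or more genes had Epcam at 705 CPM.

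The library labelled KO 2 stood apart in the transcripts of other cell types that its members carried. At least 2 of 12 adipocyte markers outside the rule were detected in 14.4 and 61.3% of members in labelled KO 1 and KO 2, against 20.8 and 5.03% in labelled WT 1 and WT 2. For fibroblast progenitor markers these shares were 6.70 and 19.1% in the libraries labelled KO, against 3.63 and 6.53% in those labelled WT, and for B cell markers 8.13 and 29.5% in labelled KO, against 7.85 and 11.1% in labelled WT. The summed level of the 12 fibroblast progenitor markers was 298 and 1548 CPM in the libraries labelled KO, against 172 and 205 CPM in those labelled WT, with all 12 detected. That of the 12 adipocyte markers was 372 and 1071 CPM in the libraries labelled KO, against 424 and 157 CPM in those labelled WT. These markers were highest in labelled KO 2 in other nuclei too. In secretory-type luminal nuclei, defined below, the adipocyte markers summed to 276 and 885 CPM in labelled KO, against 436 and 123 CPM in labelled WT. Their fibroblast progenitor markers summed to 172 and 432 CPM in labelled KO, against 159 and 138 CPM in labelled WT. In all remaining nuclei the adipocyte markers summed to 3284 and 8487 CPM in labelled KO, against 5774 and 2764 CPM in labelled WT. Of the 12 T and NK cell markers, 10 were detected in the members, and Nkg7 and Klrb1c were at 0 in every library. The T and NK markers summed to 161 and 214 CPM in labelled KO, against 183 and 84.7 CPM in labelled WT. Some results below are given also for the members with fewer than 2 markers of each of 8 other cell types (adipocytes not among them). This left 134 and 63 nuclei in labelled KO 1 and KO 2, against 238 and 126 in labelled WT 1 and WT 2. In those nuclei the adipocyte markers summed to 305 and 2034 CPM in labelled KO, against 449 and 131 CPM in labelled WT, so that set did not lower them in labelled KO 2.

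Sequence upstream of Areg and Pgr is shown because these genes, a paracrine ligand and the progesterone receptor, differed widely between libraries, as described below. Each is the 250 bases that end just before the annotated start in RefSeq on GRCm38.p6, read 5′ to 3′ on the gene's plus strand, at chr5:91139349-91139598 for Areg and chr9:8899583-8899832 for Pgr. Capitals mark letters that matched 1 of 7 motifs searched on both strands.
Areg: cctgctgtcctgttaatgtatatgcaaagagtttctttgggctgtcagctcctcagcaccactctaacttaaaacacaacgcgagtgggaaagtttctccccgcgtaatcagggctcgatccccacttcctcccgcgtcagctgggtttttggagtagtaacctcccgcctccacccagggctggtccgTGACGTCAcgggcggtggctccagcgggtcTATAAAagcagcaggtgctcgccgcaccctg
Pgr: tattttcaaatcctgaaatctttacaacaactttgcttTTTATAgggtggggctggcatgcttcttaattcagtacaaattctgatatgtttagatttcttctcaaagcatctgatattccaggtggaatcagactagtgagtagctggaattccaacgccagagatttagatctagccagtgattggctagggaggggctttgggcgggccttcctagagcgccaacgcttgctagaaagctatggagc
The capitals in Areg are the cAMP response element TGACGTCA, from 61 to 54 bases before the start, and the TATA box TATAAA, from 31 to 26 bases before it. In Pgr the only match was TTTATA, the TATA box letters on the opposite strand, from 212 to 207 bases before the start. Of 32851 windows of 250 bases before annotated starts, 1.55% held TGACGTCA and 12.4% held TATAAA on either strand. The estrogen response element, searched as the half-sites GGTCA and TGACC 3 bases apart, was found in 0.0639% of the windows, the progesterone and glucocorticoid response element, half-sites GNACA and TGTNC 3 bases apart, in 0.387%, the forkhead letters TGTTTAC in 3.17%, the GATA letters AGATAAG in 2.74% and the STAT5 letters TTCNNNGAA in 7.02%, and none of these 5 was in the Areg or Pgr window. A match describes letters only.

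The libraries labelled KO held a smaller share of hormone-sensing nuclei. They were 209 of 11988 filtered nuclei in labelled KO 1 (1.74%, exact binomial 95% interval 1.52 to 1.99%) and 173 of 15887 in labelled KO 2 (1.09%, 0.934 to 1.26%). In labelled WT 1 they were 331 of 15528 (2.13%, 1.91 to 2.37%) and in labelled WT 2 199 of 6664 (2.99%, 2.59 to 3.42%). The intervals cover counting error only. Both libraries labelled KO were below both labelled WT, with means of 1.42 ± 0.463% in labelled KO and 2.56 ± 0.604% in labelled WT (SD, n = 2 each) and a difference of -1.14 percentage points. An exact two-sided permutation test gave p = 0.33, the smallest value that 2 against 2 libraries allow.

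The size of that difference moved with depth and with the denominator. When the rule was applied to every nucleus thinned to 500 UMIs, the shares were 1.58 and 0.825% in labelled KO 1 and KO 2, against 1.87 and 2.21% in labelled WT 1 and WT 2, a difference of -0.836 points. Among nuclei with at least 1000 UMIs and 500 genes the shares were 3.62 and 1.19% in labelled KO 1 and KO 2, against 3.23 and 5.77% in labelled WT 1 and WT 2, a difference of -2.10 points. At no more than 5% mitochondrial UMIs they were 1.42 and 0.939% in labelled KO, against 1.39 and 2.11% in labelled WT, a difference of -0.574 points. In both of these settings labelled KO 1 lay above labelled WT 1, so the groups overlapped. With all filtered nuclei but without labelled WT 2, the difference was -0.715 points. Among luminal nuclei alone, hormone-sensing plus secretory-type, members made up 20.2 and 22.8% in the libraries labelled KO, against 24.4 and 44.8% in those labelled WT, so that labelled WT 1 lay close to both libraries labelled KO and labelled WT 2 stood apart. The mean of the libraries labelled KO was the lower one in each of these settings.

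**Figure D1:**
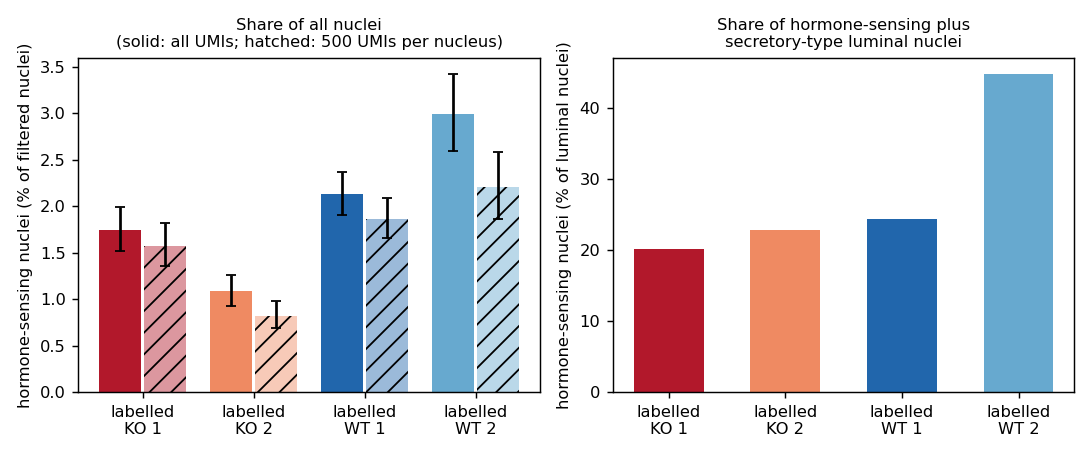
Share of filtered nuclei that met the hormone-sensing rule in each library, in percent (left), and share of luminal nuclei (right), with libraries labelled KO left of those labelled WT. Hatched bars give the share after thinning each nucleus to 500 UMIs, and error bars are exact binomial 95% intervals, drawn on the left only. The libraries labelled KO are at 1.74 and 1.09% of all nuclei, below those labelled WT at 2.13 and 2.99%, while among luminal nuclei only labelled WT 2, at 44.8%, lies far from the others.

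The receptor genes of the rule differed in how evenly the libraries expressed them. Prlr (ENSMUSG00000005268, chr15:10177238-10349180, plus strand) encodes the prolactin receptor and stood at 7563 and 4280.3 CPM in labelled KO 1 and KO 2, against 7013 and 4813 CPM in labelled WT 1 and WT 2. Its groups overlapped, and a UMI was detected in 94.7 and 86.1% of members in the libraries labelled KO, against 97.3 and 89.9% in those labelled WT. Nuclei with at least 3 of 12 T and NK cell markers, a class that should lack the gene, showed Prlr in 5.30 and 8.04% in labelled KO, against 5.67 and 5.49% in labelled WT, at a median of 898 and 1689 UMIs in the libraries labelled KO, against 927 and 924 UMIs in those labelled WT. Agtr1a, the angiotensin II type 1a receptor, stood at 1055 and 962 CPM in labelled KO 1 and KO 2, against 1684 and 1664 CPM in labelled WT 1 and WT 2, lower in both libraries labelled KO.

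Pgr (ENSMUSG00000031870, chr9:8899833-8968611, plus strand), the progesterone receptor, was high in 1 library of each label. It stood at 2777 and 458 CPM in labelled KO 1 and KO 2, against 141 and 2227 CPM in labelled WT 1 and WT 2. At least 1 Pgr UMI was found in 82.8 and 32.4% of members in labelled KO 1 and KO 2, against 13.3 and 73.9% in labelled WT 1 and WT 2. After thinning to 500 UMIs these shares were 66.5 and 13.3% in labelled KO, against 6.95 and 44.2% in labelled WT, while T and NK nuclei had 2.02 and 1.55% in labelled KO, against 0.746 and 1.83% in labelled WT. Labelled KO 1 and labelled WT 2 were thus the high libraries and labelled KO 2 and labelled WT 1 the low ones, an order that crosses the labels. A summed CPM does not separate fewer nuclei with a transcript from fewer transcripts per nucleus, and both the sums and the shares of nuclei followed this order.

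The remaining genes of the rule are described next. Slc7a2, a transporter of arginine and other cationic amino acids, stood at 2954 and 1882 CPM in labelled KO 1 and KO 2, against 2348 and 1878 CPM in labelled WT 1 and WT 2. Mtmr7, a phosphoinositide phosphatase of the myotubularin family, stood at 1399.8 and 933 CPM in labelled KO 1 and KO 2, against 1174 and 964 CPM in labelled WT 1 and WT 2. Groups overlapped for both. Samd5 ranged from 453 to 1605 CPM over the 4 libraries and Ttc6 from 793 to 1468 CPM. The row annotated as Mcub, an inhibitory subunit of the mitochondrial calcium uniporter (chr3:129914960-129970206, minus strand), held 3 and 21 UMIs in the libraries labelled KO, against 14 and 11 in those labelled WT. The median member carried 6 and 4 of the 8 genes in labelled KO 1 and KO 2, against 5 and 5 in labelled WT 1 and WT 2.

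Esr1, known as a defining gene of this cell class, was not used by the rule. It stood at 788 and 559.7 CPM in labelled KO 1 and KO 2, against 1099 and 1841 CPM in labelled WT 1 and WT 2, lower in both libraries labelled KO, with a log2 difference of -1.22 ± 0.54 (SE, labelled KO minus labelled WT; edgeR quasi-likelihood test, adjusted p = 0.999). Esr1 was found in 55.5 and 52.0% of members in the libraries labelled KO, against 71.0 and 77.4% in those labelled WT. In T and NK nuclei these shares were 9.09 and 22.9% in labelled KO, against 8.43 and 10.6% in labelled WT. Of 19 steroid and other nuclear hormone receptors on a list, 17 were tested, 3 lay above 0 and 14 below, and the median was -0.36, beside a median of -0.01 over all 8666 genes tested. None passed the test. Esrrg, the estrogen-related receptor gamma, stood at 644 and 528 CPM in labelled KO 1 and KO 2, against 1329 and 159 CPM in labelled WT 1 and WT 2, with labelled WT 2 low. Nr3c2, the mineralocorticoid receptor, stood at 584 and 316 CPM in labelled KO 1 and KO 2, against 816 and 331 CPM in labelled WT 1 and WT 2, with overlapping groups.

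Transcription factors of the luminal lineage were detected in every library. Gata3, which maintains luminal identity, stood at 1223 and 865 CPM in labelled KO 1 and KO 2, against 894 and 580.3 CPM in labelled WT 1 and WT 2, and in the secretory-type luminal nuclei at 352 and 368 CPM in the libraries labelled KO, against 366 and 283 CPM in those labelled WT. Foxa1 stood at 156 and 290 CPM in labelled KO 1 and KO 2, against 225 and 32.3 CPM in labelled WT 1 and WT 2, with labelled WT 2 far below the others, whereas in secretory-type nuclei it was at most 4.57 CPM. Tbx3, a T-box factor of hormone-sensing cells, ranged from 106 to 170 CPM. Of 23 luminal transcription factors on a list, 21 were tested, 7 lay above 0 and 14 below, and the median was -0.37, and none passed the test. Trps1, a GATA-type repressor, stood at 6194 and 3177 CPM in labelled KO 1 and KO 2, against 5564 and 6534 CPM in labelled WT 1 and WT 2, with overlapping groups. Unlike the other factors named, Trps1 was higher in every library of the secretory-type nuclei, at 8442 and 6644 CPM in the libraries labelled KO, against 9136 and 9519 CPM in those labelled WT.

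Among the secreted signals, Areg differed widely between libraries. Areg (chr5:91139599-91148432, plus strand) stood at 209 and 179 CPM in labelled KO 1 and KO 2, against 6.18 and 985 CPM in labelled WT 1 and WT 2, and a UMI was found in 17.7 and 16.2% of members in the libraries labelled KO, against 0.906 and 41.7% in those labelled WT. Labelled WT 2 was the highest and labelled WT 1 the lowest, with 3 of its 331 members holding a UMI. In T and NK nuclei the Areg shares were 0.758 and 0.945% in the libraries labelled KO, against 0.224 and 1.47% in those labelled WT. Areg counts toward the rule, so these levels are a description; with both Mcub rows left out of the rule, 207 and 157 members remained in labelled KO 1 and KO 2, against 326 and 193 in labelled WT 1 and WT 2.

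Wnt4, a ligand known as a mediator of progesterone in the mammary gland, stood at 223 and 523 CPM in labelled KO 1 and KO 2, against 265 and 122 CPM in labelled WT 1 and WT 2, with a log2 difference of 0.86 ± 0.49 (SE; edgeR adjusted p = 0.999). Labelled KO 2 was the highest and labelled WT 2 the lowest, and labelled KO 1 lay between the libraries labelled WT. Wnt5a, a ligand of the noncanonical Wnt pathway, stood at 248 and 161 CPM in labelled KO 1 and KO 2, against 95.2 and 46.2 CPM in labelled WT 1 and WT 2, and Cxcl15, a chemokine, at 206 and 159 CPM in labelled KO 1 and KO 2, against 63.1 and 41.6 CPM in labelled WT 1 and WT 2. Both were higher in both libraries labelled KO without passing the test across all genes, with edgeR adjusted p = 0.999 for Wnt5a and 0.999 for Cxcl15. In members without markers of other types, Wnt5a stood at 308 and 75.3 CPM in labelled KO, against 84.0 and 32.7 CPM in labelled WT. Its groups overlapped there. Cxcl15 stood there at 190 and 75.3 CPM in labelled KO, against 59.2 and 59.4 CPM in labelled WT. The labelled KO 2 values rested on 6 UMIs for each gene. Stc2, the secreted glycoprotein stanniocalcin 2, stood at 314 and 266 CPM in labelled KO 1 and KO 2, against 416 and 249 CPM in labelled WT 1 and WT 2, with overlapping groups. Tnfsf11, the gene of RANKL, had 2 and 0 UMIs in the libraries labelled KO, against 1 and 7 in those labelled WT, and was detected in at most 1.01% of members. Secretory-type luminal nuclei had it in 0.726 and 0.341% in labelled KO, against 0.292 and 0.816% in labelled WT. T and NK nuclei, not taken as a background for this gene, had 2.53 and 2.70% in labelled KO, against 1.94 and 3.66% in labelled WT. Calca, the calcitonin gene, had 0 and 30 UMIs in labelled KO 1 and KO 2, against 3 and 0 in labelled WT 1 and WT 2, so nearly all came from labelled KO 2. Of 17 paracrine ligands on a list, 15 had a UMI in the members, not counting Areg. Areg had UMIs as well but was left out of that number, since its row carries the symbol Mcub. The count filter passed 7, and Areg, as a gene of the rule, did not enter it. Of those tested, 4 lay above 0 and 3 below, with a median of 0.21.

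Ranked by mean CPM over that of all remaining nuclei, the 25 leading genes among 2796 at 50 CPM or more in every library included 7 of the rule. These ratios describe the gated nuclei and were not tested. Stc2 was 19.3-fold above the remaining nuclei, Ptn, the growth factor pleiotrophin, 17.6-fold, and Adrb1, the beta-1 adrenergic receptor, 16.6-fold. Slc12a2, the sodium, potassium and chloride cotransporter NKCC1, was 18.8-fold above, at 4350.3 and 2511 CPM in labelled KO 1 and KO 2, against 2400.3 and 3001 CPM in labelled WT 1 and WT 2. Slc5a5, the sodium iodide symporter known for iodide uptake in thyroid and lactating breast, was 19.7-fold above, at 603 and 185 CPM in labelled KO 1 and KO 2, against 71.7 and 100 CPM in labelled WT 1 and WT 2, and labelled KO 1 was its high library. Col8a1, a collagen VIII chain, averaged 23.5-fold above, but its ratio within a library ran from 2.31 to 42.9. Agps, an enzyme of ether lipid synthesis, averaged 16.1-fold above and stood at 5068 and 3495 CPM in labelled KO 1 and KO 2, against 2525 and 402 CPM in labelled WT 1 and WT 2, with labelled WT 2 low. The predicted gene Gm21973 was also among the leaders at 28.2-fold; its annotation (chr15:10325380-10373749, plus strand) overlaps Prlr on the same strand over 23801 bases, so its reads may be shared with Prlr and its value is uncertain. The other leaders outside the rule were Gm48664, Tmem56, Plk2, Wfdc2, Gclc, Nrxn3, Cd164, Prom2, Krt7 and Tfap2b, at 14.6- to 22.6-fold.

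Set against the secretory-type luminal nuclei, the other luminal class of the same ducts, the members were higher in genes that include some of those above. Secretory-type nuclei held at least 3 of the 8 secretory genes and fewer than 3 of the hormone-sensing ones, 2684 in all. Tph1, tryptophan hydroxylase 1, which starts serotonin synthesis, was 188-fold higher in the members, Nrxn3, the cell adhesion protein neurexin 3, 81.1-fold, and Piezo2, a mechanically gated ion channel, 76.5-fold. The Tph1 ratio is uncertain because its secretory-type level was near the floor. It stood there at 1.65 and 0.571 CPM in labelled KO, against 2.76 and 0 CPM in labelled WT. Rasgrf1, an exchange factor that activates Ras, was 63.8-fold higher and Plk2, a polo-like kinase, 52.6-fold. In the other direction, Kit, the stem cell factor receptor of luminal progenitors, averaged 22.2 CPM in members and 755 CPM in secretory-type nuclei. Btn1a1, the butyrophilin of the milk fat globule, averaged 13.9 CPM in members and 336 CPM in secretory-type nuclei. Fads2, a fatty acid desaturase, averaged 3.95 CPM in members and 109.8 CPM in secretory-type nuclei, and Ntn1, the guidance factor netrin-1, 51.7 CPM in members and 1362 CPM in secretory-type nuclei. Of the 15 highest and 15 lowest genes by this ratio, 6 and 6 belonged to the rule.

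**Figure D2:**
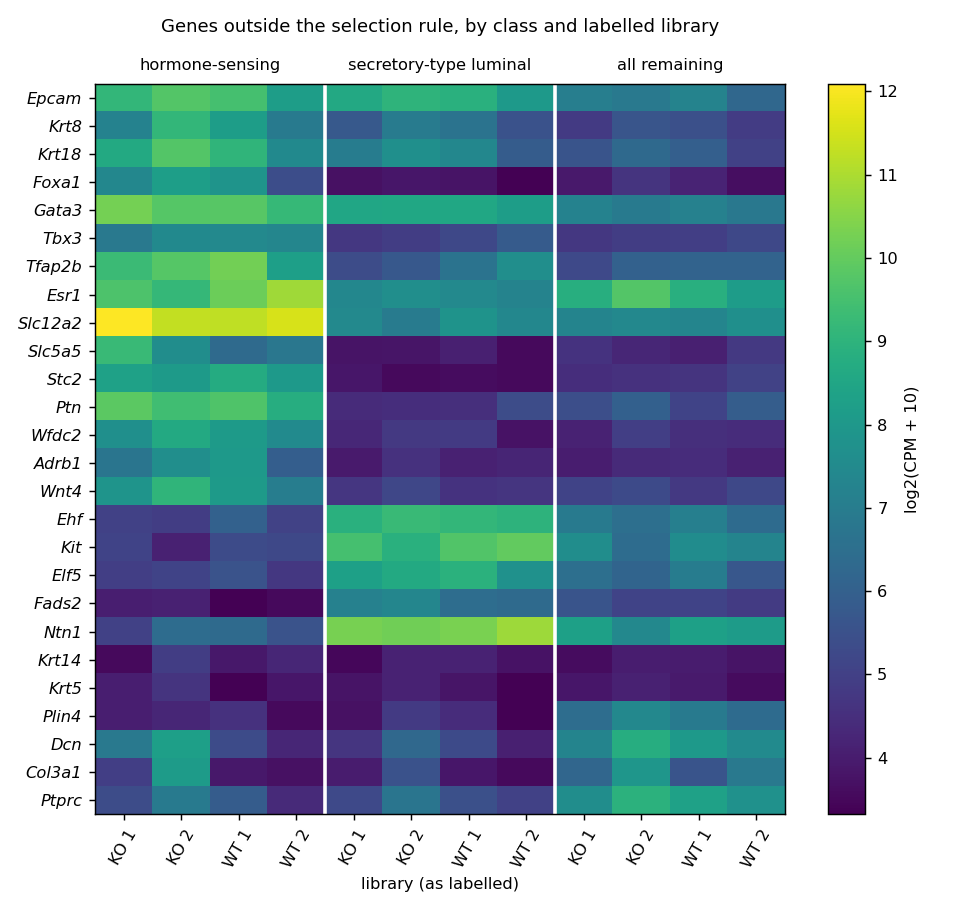
Colour gives log2(CPM + 10) of genes that the rule did not use (rows), in the hormone-sensing, secretory-type luminal and all remaining nuclei of each library (columns, libraries labelled KO left of those labelled WT in each class). Slc12a2 is brightest in the hormone-sensing columns, at 4350.3 and 2511 CPM in labelled KO 1 and KO 2 and 2400.3 and 3001 CPM in labelled WT 1 and WT 2, Kit and Ntn1 in the secretory-type columns, and Dcn and Col3a1 are brighter in labelled KO 2 than in the other hormone-sensing columns.

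No gene passed for a difference between the labels in the hormone-sensing nuclei by the edgeR quasi-likelihood test, 0 of 8666 tested (0%) at an adjusted p under 0.05. At an unadjusted p under 0.05 there were 233 genes (2.69%), 134 higher (1.55%) and 99 lower (1.14%) in the libraries labelled KO. DESeq2 called 6 of the same 8666 genes, all higher, namely Olfm4, Gm47283, Ido1, Ctsr, Dcn and Col3a1, and placed 152 under an unadjusted p of 0.05. The ranges of the labels did not overlap for 2450 genes (28.3%). Without labelled WT 1 the test called 310 genes and without labelled WT 2 it called 73, and it called none without labelled KO 1 and none without labelled KO 2. The genes described next stand at the head of the edgeR ranking or among the DESeq2 calls and were chosen after their values were seen.

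Olfm4 (ENSMUSG00000022026, chr14:79984081-80023139, plus strand), which encodes the secreted glycoprotein olfactomedin 4, held the lowest p. Its counts in the members were 138 and 104 UMIs in labelled KO 1 and KO 2, against 1 and 3 in labelled WT 1 and WT 2, or 236 and 192 CPM in labelled KO, against 1.24 and 4.62 CPM in labelled WT. Both libraries labelled KO were far above both labelled WT, with a log2 difference of 6.10 ± 0.63 (SE; edgeR unadjusted p = 1.33e-05, adjusted p = 0.115). It was detected in 25 and 24 of the 209 and 173 members of labelled KO 1 and KO 2, against 1 and 1 of the 331 and 199 of labelled WT 1 and WT 2. T and NK nuclei had it in 1.01 and 1.08% in labelled KO, against 0.298 and 1.10% in labelled WT. Among members without markers of other cell types it stood at 311 and 289 CPM in labelled KO, against 1.91 and 0 CPM in labelled WT, and there the edgeR test called it, with a log2 difference of 7.60 (adjusted p = 0.0288). The secretory-type nuclei had 2.20 and 4.57 CPM in the libraries labelled KO, against 0.460 and 1.73 CPM in those labelled WT.

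Ido1 (ENSMUSG00000031551, chr8:24584136-24597009, minus strand), an interferon-inducible enzyme that degrades tryptophan, stood at 1304 and 1282 CPM in labelled KO 1 and KO 2, against 24.7 and 80.0 CPM in labelled WT 1 and WT 2. The log2 difference was 4.50 ± 0.71 (SE; edgeR adjusted p = 0.925), and the groups were far apart. A UMI was found in 43.5 and 43.4% of members in the libraries labelled KO, against 3.02 and 10.1% in those labelled WT, which after thinning became 31.1 and 24.3% in labelled KO, against 0.604 and 2.01% in labelled WT. Secretory-type nuclei had 7.14 and 14.9 CPM in labelled KO, against 1.38 and 0 CPM in labelled WT, below the members of the same library in each case. Of 22 genes of interferon response and tryptophan use on a list, 20 had a UMI in the members, 8 were tested, 6 lay above 0 and 2 below, and the median was 0.48; none passed the test. H2-K1, a class I major histocompatibility gene, stood at 1170.2 and 1637 CPM in labelled KO 1 and KO 2, against 1244 and 399 CPM in labelled WT 1 and WT 2, with overlapping groups.

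In the members, Gm47283 (ENSMUSG00000096768, annotated on chrY:90784738-90816464, plus strand) stood at 1441 and 1131 CPM in labelled KO 1 and KO 2, against 63.1 and 32.3 CPM in labelled WT 1 and WT 2, with a log2 difference of 4.70 ± 0.55 (SE; edgeR adjusted p = 0.132). The difference was not limited to them. In the secretory-type nuclei it stood at 2542 and 1652 CPM in labelled KO, against 82.8 and 48.3 CPM in labelled WT, and in all remaining nuclei at 2282 and 1470.4 CPM in labelled KO, against 41.6 and 28.6 CPM in labelled WT. Xist, the RNA of the inactive X chromosome, stood at 1097 and 975 CPM in labelled KO 1 and KO 2, against 1059.8 and 1144 CPM in labelled WT 1 and WT 2. The Y-linked genes Ddx3y and Eif2s3y were at 0 UMIs in the members of each library. Which chromosome the Gm47283 reads came from was not tested.

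Further genes at the head of the ranking had adjusted p-values above the threshold by edgeR. Aqp5, a water channel of secretory ducts, stood at 271 and 231 CPM in labelled KO 1 and KO 2, against 68.0 and 49.3 CPM in labelled WT 1 and WT 2, with a log2 difference of 2.03 ± 0.37 (SE; edgeR adjusted p = 0.999). Snap25, a membrane fusion protein, stood at 89.1 and 115 CPM in labelled KO 1 and KO 2, against 3.71 and 15.4 CPM in labelled WT 1 and WT 2, and in the members without markers of other types at 32.8 and 226 CPM in labelled KO, against 1.91 and 5.94 CPM in labelled WT. Coro2a, an actin-binding coronin, was lower in both libraries labelled KO, at 154 and 168 CPM in labelled KO 1 and KO 2, against 591 and 391 CPM in labelled WT 1 and WT 2 (log2 difference -1.67 ± 0.38, SE; edgeR adjusted p = 0.999). Rgs20, a regulator of G protein signalling, stood at 32.6 and 27.7 CPM in labelled KO 1 and KO 2, against 95.2 and 105 CPM in labelled WT 1 and WT 2. Cpeb2, a protein that binds mRNA, stood at 99.4 and 90.5 CPM in labelled KO 1 and KO 2, against 218 and 326 CPM in labelled WT 1 and WT 2, and Adarb2, of the RNA-editing ADAR family, at 262 and 323 CPM in labelled KO 1 and KO 2, against 1020.2 and 640.3 CPM in labelled WT 1 and WT 2, and both were lower in both libraries labelled KO. Dcn and Col3a1, the fibroblast genes of decorin and a fibrillar collagen chain, belong to the fibroblast progenitor markers. In all members, Dcn stood at 108 and 297 CPM in labelled KO 1 and KO 2, against 29.7 and 9.23 CPM in labelled WT 1 and WT 2. It was at 52.4 and 62.8 CPM in labelled KO, against 15.3 and 0 CPM in labelled WT, in those without markers of other types. Col3a1 stood at 20.6 and 269.7 CPM in labelled KO 1 and KO 2, against 4.95 and 3.08 CPM in labelled WT 1 and WT 2, and in those without markers of other types at 9.83 and 50.2 CPM in labelled KO, against 3.82 and 2.97 CPM in labelled WT. The last values rested on 3 and 4 UMIs in labelled KO, against 2 and 1 in labelled WT, and labelled KO 2 was still the high library. Of the 146 Col3a1 UMIs of all members in labelled KO 2, 133 lay in members with exactly 3 of the 8 genes. In members with 5 or more, Col3a1 stood at 15.4 and 30.8 CPM in labelled KO, against 2.96 and 3.77 CPM in labelled WT. The part of other cells' transcripts in the Dcn and Col3a1 differences was not tested.

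**Figure D3:**
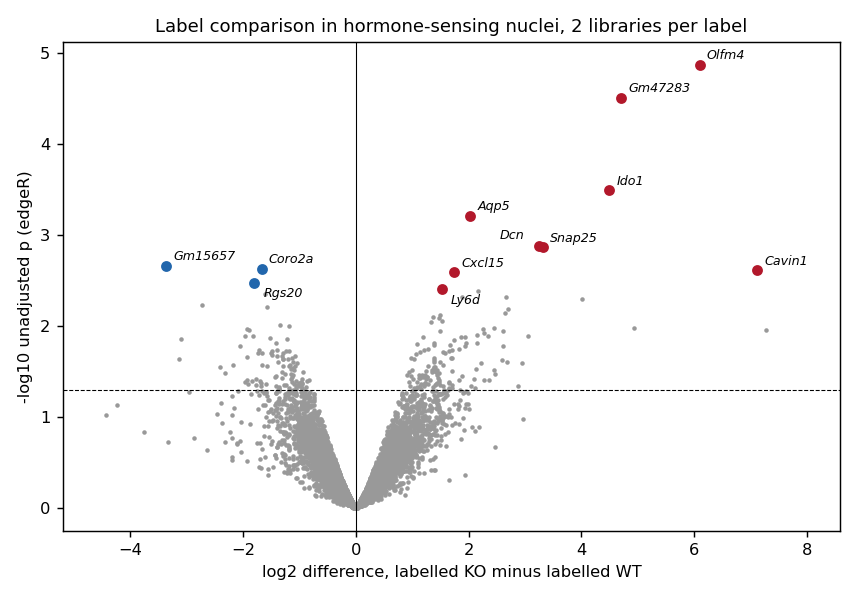
Each point is 1 of 8666 genes tested in hormone-sensing nuclei, with the log2 difference (labelled KO minus labelled WT) on the horizontal axis and −log10 of the unadjusted edgeR p on the vertical axis; the dashed line marks an unadjusted p of 0.05. Olfm4 lies highest, at a log2 difference of 6.10, and no gene passed the adjusted threshold.

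**Figure D4:**
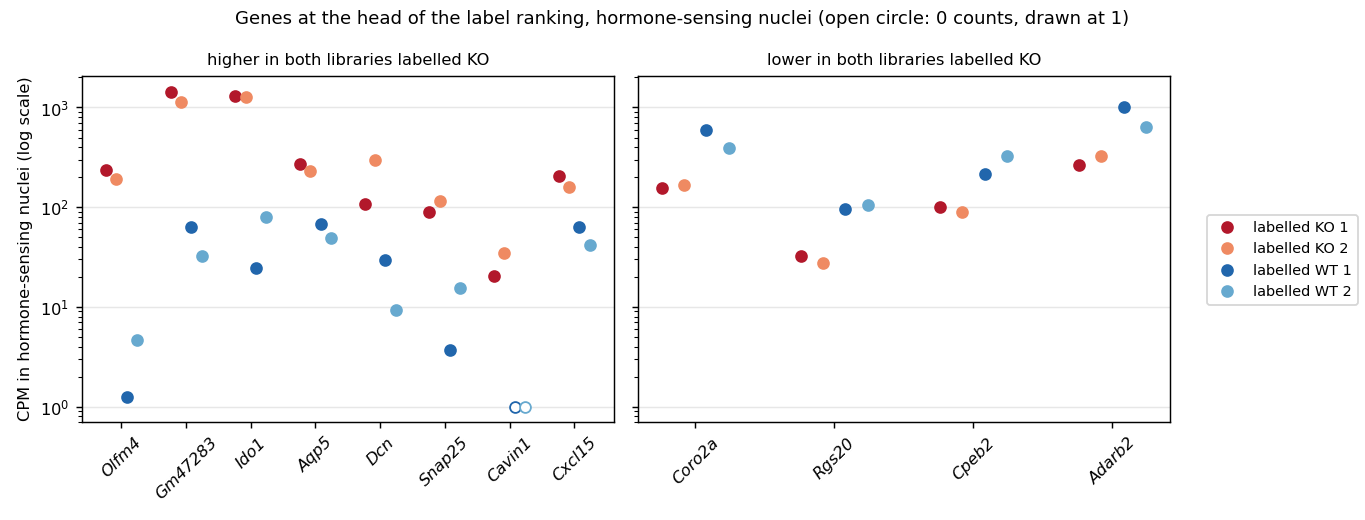
Level in CPM on a log scale, in each library's hormone-sensing nuclei, of genes at the head of the label ranking; red points are libraries labelled KO, blue points those labelled WT, and open circles are 0 counts drawn at 1. Ido1 is at 1304 and 1282 CPM in the libraries labelled KO and 24.7 and 80.0 CPM in those labelled WT, and Cavin1 has no UMI in the libraries labelled WT.

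The gene lists did not hold a call. Of 16 genes of the path from prolactin receptor to STAT5, 13 were tested, 2 lay above 0 and 11 below, and the median was -0.48. Jak2, the kinase bound to the receptor, stood at 326 and 188 CPM in labelled KO 1 and KO 2, against 173 and 909.6 CPM in labelled WT 1 and WT 2, with labelled WT 2 high. Stat5b, one of the STAT5 genes, stood at 228 and 192 CPM in labelled KO 1 and KO 2, against 249 and 345 CPM in labelled WT 1 and WT 2, lower in both libraries labelled KO (log2 difference -0.59, edgeR adjusted p = 0.999), and Socs2, a feedback inhibitor of the pathway, at 264 and 198 CPM in labelled KO, against 364 and 257 CPM in labelled WT. Among 20 genes regulated by steroid hormones, 18 had a UMI in the members, 16 were tested, 8 lay above 0 and 8 below, and the median was -0.06. Among 16 ERBB receptors and ligands, 15 had a UMI in the members, not counting Areg, which had UMIs on a row named Mcub. On this list 10 were tested, 5 lay above 0 and 5 below, and the median was -0.04. Nrg4, a ligand of ERBB4, stood at 320.4 and 264 CPM in labelled KO 1 and KO 2, against 197 and 120.1 CPM in labelled WT 1 and WT 2, higher in both libraries labelled KO (edgeR adjusted p = 0.999). The genes were on these lists with earlier results of these data known.

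Structural and transport genes were also spread about 0. Of 25 luminal keratins and junction genes, 23 were tested, 13 lay above 0 and 10 below, and the median was 0.04. Krt19, a luminal keratin, stood at 355 and 805 CPM in labelled KO 1 and KO 2, against 376 and 192 CPM in labelled WT 1 and WT 2, and Pard3, a polarity scaffold, at 451 and 425 CPM in labelled KO 1 and KO 2, against 495 and 793 CPM in labelled WT 1 and WT 2, with overlapping groups for Krt19 and lower values in both libraries labelled KO for Pard3 (edgeR adjusted p = 0.999). Of 20 ion channels and transporters of ductal epithelium, 13 were tested, 8 lay above 0 and 5 below, and the median was 0.17. For 21 genes of the Wnt and Notch pathways, 17 were tested, 11 lay above 0 and 6 below, and the median was 0.12. Of 11 caveola components, 8 were tested, 2 lay above 0 and 6 below, and the median was -0.12. Cav1, the caveolin that cavin-1 assembles with, stood at 25.7 and 88.7 CPM in labelled KO 1 and KO 2, against 65.5 and 180.1 CPM in labelled WT 1 and WT 2, with overlapping groups, and Cavin1 itself had a log2 difference of 7.12 (edgeR unadjusted p = 0.00241, adjusted p = 0.999).

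The cytosolic ribosomal protein genes lay to one side. Of 23 tested, 22 were above 0 and 1 below, with a median log2 difference of 0.73, and the labels did not overlap for 10, all higher, where 16.5% of all genes tested were higher without overlap. None passed the test. Their summed level was 2399 and 4404 CPM in labelled KO 1 and KO 2, against 2753 and 1136 CPM in labelled WT 1 and WT 2, so the sum of labelled KO 1 lay between those of the libraries labelled WT. Rps9 stood at 312 and 381 CPM in labelled KO 1 and KO 2, against 187 and 122 CPM in labelled WT 1 and WT 2, and Rplp1 at 392 and 502 CPM in labelled KO, against 599 and 159 CPM in labelled WT, with overlapping groups for Rplp1. Adipocyte and fibroblast progenitor markers showed the same side, with medians of 1.45 over 8 tested and 1.57 over 6 tested, and again with labelled KO 2 highest in the sums. The ribosomal side was not limited to the members. In secretory-type nuclei these genes summed to 2858 and 4081 CPM in labelled KO, against 2702 and 1437 CPM in labelled WT. In all remaining nuclei the ribosomal sums were 1475 and 1728 CPM in labelled KO, against 1399 and 886 CPM in labelled WT. Whether transcripts of other cells carry part of the ribosomal difference was not tested.

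The label difference was then set against that of other nuclei of the same libraries, with the library as a block. Against the secretory-type nuclei, no gene of 10643 tested passed the edgeR test for a different label effect (0%), with 303 at an unadjusted p under 0.05 (2.85%). Against all remaining nuclei, 9 of 21408 genes differed (0.042%), 8 with a higher and 1 with a lower label difference in the members, and 662 were at an unadjusted p under 0.05 (3.09%). Olfm4 was the first, with an interaction of 5.32 ± 0.74 (SE; adjusted p = 1.70e-08) by edgeR; in the remaining nuclei it was at 10.3 and 9.25 CPM in the libraries labelled KO, against 3.84 and 7.27 CPM in those labelled WT. Snap25 had an interaction of 3.16 ± 0.68 (SE; adjusted p = 0.0137) by edgeR, with 9.50 and 8.69 CPM in the remaining nuclei of the libraries labelled KO, against 5.53 and 9.78 CPM in those labelled WT. The predicted gene 5430419D17Rik had 2.87 ± 0.62 (SE; adjusted p = 0.0137) by edgeR, at 680.2 and 103 CPM in the members of the libraries labelled KO, against 2.47 and 131 CPM in those labelled WT, so labelled KO 2 did not exceed labelled WT 2. The others were Dcn, Fndc1, Gfpt2, Col3a1 and Nova1, higher, and Sncaip, lower. In the comparison with all remaining nuclei the spread was pooled over genes. Its p-values therefore do not measure how far a single gene varied between the libraries of 1 label. Without labelled KO 1 the number was 2, without labelled WT 1 it was 26, and among members without markers of other cell types 1 gene was past the threshold.

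Differences between the libraries of 1 label lay within the range of those between labels. The median absolute log2 difference over the 8666 genes was 0.44 between labelled KO 1 and KO 2 and 0.53 between labelled WT 1 and WT 2. Across labels it ran from 0.40, for labelled KO 1 with labelled WT 1, to 0.56, for labelled KO 2 with labelled WT 2. The 3 largest of the 6 values all involved labelled WT 2. The genes that follow were chosen after their values were seen, for high levels in 1 library of each label, and are described without a test.

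Further genes, chosen after their values were seen, were high in the same libraries as Pgr, labelled KO 1 and labelled WT 2. Nrxn3 stood at 10296 and 1984 CPM in labelled KO 1 and KO 2, against 2551 and 11845 CPM in labelled WT 1 and WT 2, and Rasgrf1 at 1244 and 185 CPM in labelled KO, against 200.3 and 2184 CPM in labelled WT. Tph1 stood at 353 and 86.8 CPM in labelled KO 1 and KO 2, against 90.3 and 405 CPM in labelled WT 1 and WT 2, and Piezo2 at 1652 and 879 CPM in labelled KO, against 547 and 2455 CPM in labelled WT. In all 4 the lowest value of the high pair exceeded the highest of the low pair. Other genes were high in labelled WT 2 alone. Greb1, a coactivator induced by the estrogen receptor (chr12:16670615-16800886, minus strand), stood at 17.1 and 5.54 CPM in labelled KO 1 and KO 2, against 3.71 and 446 CPM in labelled WT 1 and WT 2, and was detected in 1.91 and 1.73% of members in the libraries labelled KO, against 0.906 and 43.7% in those labelled WT. In the T and NK nuclei Greb1 was found in 3.79 and 2.90% in labelled KO, against 1.34 and 5.13% in labelled WT, so only the labelled WT 2 members stood above that background. Myb, a transcription factor of estrogen receptor-positive cells, stood at 68.5 and 31.4 CPM in labelled KO 1 and KO 2, against 26.0 and 391 CPM in labelled WT 1 and WT 2, again with labelled WT 2 highest.

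A second group ran the other way, with labelled WT 2 lowest. Cited1 (chrX:102247381-102252181, minus strand), a transcriptional cofactor of estrogen receptor signalling in the mammary gland, stood at 65.1 and 386 CPM in labelled KO 1 and KO 2, against 716 and 3.08 CPM in labelled WT 1 and WT 2, and was detected in 10.0 and 25.4% of members in the libraries labelled KO, against 46.8 and 1.01% in those labelled WT. Labelled WT 1 and labelled KO 2 were its high libraries. Col8a1 stood at 559 and 802 CPM in labelled KO 1 and KO 2, against 3082 and 92.3 CPM in labelled WT 1 and WT 2, and Fxyd2, a regulatory subunit of the sodium pump, at 72.0 and 172 CPM in labelled KO 1 and KO 2, against 183 and 12.3 CPM in labelled WT 1 and WT 2. For Col8a1 labelled WT 1 was the highest, and for both genes labelled WT 2 was the lowest. Foxa1, Krt18, Tfap2b and Esrrg were likewise lowest in labelled WT 2, at 32.3, 171, 299 and 159 CPM, each below the other libraries' lowest values of 156, 394, 615 and 528 CPM in the same order. Esr1 was highest in that library, at 1841 CPM.

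Greb1, Cited1 and Pgr were also examined in narrower sets of members. With 5 or more of the 8 genes, Greb1 stood at 17.3 and 2.80 CPM in labelled KO 1 and KO 2, against 2.96 and 394 CPM in labelled WT 1 and WT 2. Cited1 stood there at 67.2 and 558 CPM in labelled KO, against 762 and 3.77 CPM in labelled WT. Pgr stood there at 2935 and 592 CPM in labelled KO, against 161 and 2529 CPM in labelled WT. Pgr is 1 of the 8 genes counted, so its level in that set is only a description. Among members without markers of other cell types Pgr was at 2784 and 213 CPM in labelled KO, against 136 and 2392 CPM in labelled WT. There, Greb1 stood at 13.1 and 0 CPM in labelled KO, against 5.73 and 553 CPM in labelled WT, and Cited1 at 65.5 and 213 CPM in labelled KO, against 718 and 2.97 CPM in labelled WT. Labelled WT 2 remained the highest for Greb1 and the lowest for Cited1.

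The differences were also present when members with and without a Pgr UMI were summed separately. Among members with a Pgr UMI, Greb1 was at 18.7 and 3.60 CPM in the libraries labelled KO, against 0 and 437 CPM in those labelled WT. Among members without one it stood at 0 and 7.59 CPM in labelled KO, against 4.54 and 505 CPM in labelled WT. Greb1 was thus high in both kinds of labelled WT 2 nuclei. Areg in labelled WT 2 stood at 1078 CPM in members with a Pgr UMI and 417 CPM in those without, and in labelled WT 1 at 0 CPM with and 7.56 CPM without. Cited1 in labelled WT 1 stood at 671 CPM with and 726 CPM without a Pgr UMI. Members with a Pgr UMI were deeper, with medians of 2153 and 4183 UMIs in labelled KO 1 and KO 2, against 2816 and 2799 in labelled WT 1 and WT 2, than those without, at 1034 and 1298 UMIs in labelled KO, against 1919 and 1393 UMIs in labelled WT.

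**Figure D5:**
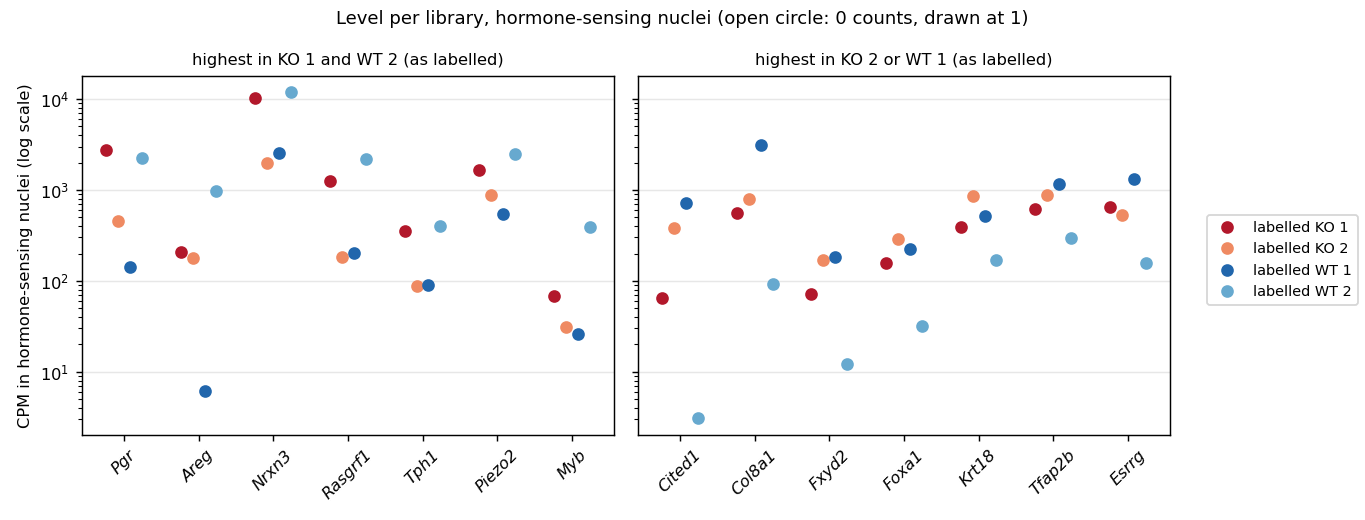
Level in CPM on a log scale, in each library's hormone-sensing nuclei, of genes highest in labelled KO 1 and labelled WT 2 (left) and of genes highest in labelled KO 2 or labelled WT 1 (right). Pgr is at 2777 and 458 CPM in labelled KO 1 and KO 2 and 141 and 2227 CPM in labelled WT 1 and WT 2, and Cited1 at 65.1 and 386 CPM in labelled KO, against 716 and 3.08 CPM in labelled WT.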

How the data were processed

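Single-nucleus RNA-seq libraries of inguinal fat (GEXSCOPE nucleus isolation, per the labels' protocols) were deposited by the authors as matrices of raw UMI counts per gene and barcode, whole numbers with no normalization. The submitters' processing notes name Seurat 4.3.0 and the builds GRCm38 and mm10; aligner and barcode filter: not given in the sources used here. Every deposited barcode held at least 500 UMIs.

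Nuclei with at least 300 genes and at most 10% mitochondrial UMIs were kept, the rule of the report was applied, and raw counts were summed per library and class. Doublets were not called, and nuclei with 2 or more markers of another type were left out in an alternative. Labels were compared with edgeR 4.0.16 (glmQLFit, robust, filterByExpr, TMM; Benjamini-Hochberg over all genes tested, threshold 0.05) in R 4.3.3, with the 25 rule genes kept in the library sizes and out of the test, and interactions with the library as a block. DESeq2 1.42.0 was an alternative. CPM are counts per 1000000 summed UMIs. Shares were tested by exact permutation in R, and their exact binomial intervals came from scipy 1.17.1. The fits were tested on simulated data. No count was taken from columns of other samples. Depth sets the precision: a count of 0 allows up to 3 counts.

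Members and gene lists were chosen with earlier results of these data known. Named were the rule genes, list members of highest mean CPM, called genes and the 25 and 15 leading genes by ratio; others are said to be chosen after their values were seen. Alternatives covered the filter, scaling, tool, gate, nucleus filter, each library left out and the replicate block. Deviations of same-numbered libraries from their label means correlated at -0.25 over genes, so the numbers do not pair the libraries. Replicates differed beyond sampling noise (chi-square per degree of freedom 8.21 for the libraries labelled KO and 14.7 for those labelled WT). Gene positions are from GENCODE M21 and promoters from RefSeq; of 8 genes looked up, 6 had a promoter entry.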

Additional observations from a re-analysis of the deposited data

Results flagged for a closer look

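The label difference in the hormone-sensing nuclei differed from that in all remaining nuclei for 9 genes by the edgeR interaction test, which compares the same contrast in the 2 classes. As said above, that test pooled the spread over genes. The interaction, on the log2 scale, was 5.32 for Olfm4, 3.16 for Snap25 and 2.87 for 5430419D17Rik, whose levels are given above. Sncaip, which encodes synphilin-1, had -3.48, with 6.85 and 7.39 CPM in the members of the libraries labelled KO, against 14.8 and 305 CPM in those labelled WT, so that labelled WT 2 alone was high. Gfpt2, an enzyme of hexosamine synthesis, had 2.58, with 89.1 and 127 CPM in the members of the libraries labelled KO, against 100.2 and 13.9 CPM in those labelled WT, and labelled WT 2 alone was low.

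All 9 genes had UMIs in the remaining nuclei. Sncaip stood there at 46.2 and 30.9 CPM in labelled KO, against 27.5 and 64.2 CPM in labelled WT. Gfpt2 stood there at 14.5 and 39.2 CPM in labelled KO, against 69.2 and 58.3 CPM in labelled WT. For the other 4 of the 9 genes, the interaction was 3.31 for Col3a1, 3.20 for Nova1, 3.01 for Dcn and 2.99 for Fndc1. Each had its highest member level in labelled KO 2, at 269.7, 99.8, 297 and 109 CPM in that order. When nuclei with markers of other types were left out, Nova1 held 0 and 0 UMIs in labelled KO, against 1 and 1 in labelled WT. The part of other cells' transcripts in these 4 was not tested.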

How the results depend on the processing

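No gene was called between the labels under DESeq2 size factors, a total of 20 counts as the filter, a gate of 4 genes, the stricter UMI or mitochondrial filters, the rule genes kept in the test, and 3 alternatives chosen after seeing the data (the Mcub rows read as 1 or left out, and a gate of 5 genes). Without a filter on low counts 33 were called, 23 higher and 10 lower. DESeq2 called 6, all higher. The rule after thinning called 2, Olfm4 and Gm47283, and leaving out nuclei with markers of another type called 1, Olfm4, so these calls depend on the gate. Leaving out 1 library gave 0 to 310 calls, with 0 to 134 higher and 0 to 176 lower. Without labelled WT 1 there were 310, without labelled WT 2 there were 73 (48 higher and 25 lower), and without either library labelled KO none; the lone library is then assumed to vary like the other label. The cause was not tested.

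With the replicate block no gene was called and 142 were at an unadjusted p under 0.05, against 233 without it. A crossed pairing, also chosen after seeing the data, called 2, higher in the libraries labelled KO. The log2 difference of Cavin1 was 7.09 without the low-count filter and passed the threshold there (adjusted p = 0.00573), and ran from 6.95 to 7.40 with 1 library left out, passing without labelled WT 1 or labelled WT 2. The interaction with secretory-type nuclei gave 9 genes without the filter and 0 to 95 with 1 library left out. The interaction with all remaining nuclei gave 3 genes after thinning, 1 without nuclei with markers of another type and 2 to 26 with 1 library left out. The Nova1 interaction turned to -6.94 without nuclei with markers of another type. That value rested on 0 and 0 Nova1 UMIs in members of labelled KO, against 1 and 1 in labelled WT. Among the single genes, 279 values kept both their sign and their place relative to the threshold in an alternative. With the sign kept, 38 newly passed the threshold and 39 no longer passed it, and 1 value changed sign. The share difference ran from -1.57 to -0.715 points with 1 library left out and kept its sign in all settings.

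Depth limits genes at a few counts, and 2 libraries per label and the unsettled labels limit every comparison.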

Other observations

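Of 11 genes of the renin and angiotensin system beside Agtr1a, 10 had a UMI in the members and 3 passed the count filter in the hormone-sensing nuclei, all above 0 with a median log2 difference of 0.31 and none called. Lnpep, a membrane aminopeptidase, stood at 194 and 209 CPM in labelled KO 1 and KO 2, against 156 and 151 CPM in labelled WT 1 and WT 2. Arginine is the cargo of the rule gene Slc7a2. Arg2, the mitochondrial arginase, stood at 238 and 185 CPM in labelled KO 1 and KO 2, against 420.4 and 191 CPM in labelled WT 1 and WT 2, and the cytosolic arginase Arg1 at 37.7 and 231 CPM in labelled KO 1 and KO 2, against 156 and 29.2 CPM in labelled WT 1 and WT 2, with overlapping groups for both. Of 16 genes of cationic amino acid transport and arginine use, 7 were tested, 5 lay above 0 and 2 below, and the median was 0.15. Of 9 genes of the mitochondrial calcium uniporter, 9 were tested, 5 lay above 0 and 4 below, and the median was 0.05.

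Milk protein and clock genes were also measured in the members. The casein gene Csn3 stood at 32.6 and 57.3 CPM in labelled KO 1 and KO 2, against 181 and 4.62 CPM in labelled WT 1 and WT 2 and Csn1s1 at 22.3 and 53.6 CPM in labelled KO 1 and KO 2, against 139.7 and 0 CPM in labelled WT 1 and WT 2, highest in labelled WT 1 and lowest in labelled WT 2. Of 20 circadian clock genes, 19 had a UMI in the members, 16 were tested, 8 lay above 0 and 8 below, and the median was 0.01; Bhlhe40, a repressor of the clock, stood at 199 and 218 CPM in labelled KO 1 and KO 2, against 742 and 81.6 CPM in labelled WT 1 and WT 2, with labelled WT 1 alone high. Of 18 glucocorticoid targets, 16 were tested, 4 lay above 0 and 12 below, and the median was -0.28; Glul, glutamine synthetase, stood at 1157 and 528 CPM in labelled KO 1 and KO 2, against 249.8 and 739 CPM in labelled WT 1 and WT 2, and Zbtb16 at 117 and 301 CPM in labelled KO 1 and KO 2, against 296 and 696 CPM in labelled WT 1 and WT 2. Of 24 cell cycle genes only 4 passed the count filter. Ccnd1, cyclin D1, stood at 99.4 and 281 CPM in labelled KO 1 and KO 2, against 73.0 and 32.3 CPM in labelled WT 1 and WT 2, higher in both libraries labelled KO without passing the test (edgeR adjusted p = 0.999). None of these lists held a call.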
